A study of Mus musculus with 34 samples.

Results

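The immediate early response genes described here are Fos, Fosb, Fosl2, Jun, Junb, Jund, Egr1, Atf3, Ier2 and Zfp36, which is 10 of the 21938 protein-coding genes of the mouse annotation used (GENCODE M21, genome build mm10). They were taken by name, and the value of each gene is the mean H3K4me3 signal within 1000 bp of its annotated 5′ end. H3K4me3, the trimethylation of lysine 4 of histone H3, was measured by CUT&RUN, in which an antibody brings protein A fused to micrococcal nuclease (MNase) to chromatin in unfixed nuclei and the DNA that is cut free is sequenced. The cells were scraped from the villi of normal-appearing small intestine of 2 wild-type and 2 ApcMin/+ mice, all C57BL/6J, with 1 library per mouse. The sample labels give an age of 5 weeks for all of them, whereas the methods of the study give 6 weeks. ApcMin/+ mice carry a heterozygous mutant Apc allele in every cell and develop intestinal adenomas as they age.

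Immediate early genes are transcribed within minutes of a stimulus such as growth factor, stress or wounding, without new protein synthesis, by factors that are already bound at or near their promoters. Fos, Fosb and Fosl2 pair with Jun, Junb or Jund to form the transcription factor AP-1, Atf3 is a stress-induced factor of the same basic leucine zipper class, Egr1 is a zinc finger transcription factor induced by growth factors, Zfp36 (tristetraprolin) binds AU-rich elements and promotes decay of short-lived mRNAs, and Ier2 is a small nuclear protein. H3K4me3 marks promoters in use or ready for use and does not measure the amount of RNA, which was not analysed here. In the intestinal epithelium, AP-1 genes are known for their response to growth factors, injury and luminal stimuli.

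The 4 deposited tracks hold coverage that the authors scaled to 10000000 tags per library, referred to as signal, with no unit beyond that scaling. Depth ranged from 1430000 tags in wild-type replicate 1 to 5470000 tags in ApcMin/+ replicate 2, with 4790000 in wild-type replicate 2 and 3700000 in ApcMin/+ replicate 1. ApcMin/+ replicate 1 stood apart from the other libraries. The median promoter with a mean signal of at least 2 (9930 promoters, the ones tested) had a signal of 13.2 in it, against 4.53 and 3.06 in the wild-type libraries and 4.18 in ApcMin/+ replicate 2, and 98.6% of these promoters were highest in it. Enriched regions, meaning stretches at 5 times the genome-wide mean or more, took 43.2% of its signal against 11.9% to 22.6% in the other libraries. The tested promoters and the regions were both chosen on the mean of the 4 libraries, to which ApcMin/+ replicate 1 contributed most. Over all 21938 protein-coding promoters the medians were closer, at 1.39 and 0.974 in wild-type and 1.62 and 1.39 in ApcMin/+ libraries. Each comparison of the genotypes is therefore also given without ApcMin/+ replicate 1 and after centring every library on its median promoter. Of the marker genes for enterocytes, 13 of 14 passed the signal filter, with summed signals of 81.99 and 50.1 in wild-type and 240.03 and 63.8 in ApcMin/+ libraries. None of 8 immune, 8 mesenchymal and endothelial and 8 silent genes passed it. The summed signal of the mesenchymal and endothelial genes was 3.82 to 4.95 in wild-type and 6.61 to 8.36 in ApcMin/+ libraries. Col1a1, Cdh5 and Pdgfra were at 0 in wild-type replicate 1, and the part of these genes in any difference was not tested. Not every gene followed the sums. Acta2 had 1.39 and 0.520 in wild-type and 0.467 and 0.634 in ApcMin/+ libraries. Pecam1 had 2.39 in ApcMin/+ replicate 1 but 0.329 in ApcMin/+ replicate 2. The silent genes summed to 5.21 and 4.50 in wild-type and 2.85 and 4.29 in ApcMin/+ libraries. The summed signal of the immune genes was 5.52 to 7.70 in wild-type and 4.81 to 5.07 in ApcMin/+ libraries, with Ptprc at 0 in wild-type replicate 1 and Lyz2 at 0 in ApcMin/+ replicate 1.

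Promoter sequences, 5′ to 3′, are given for Fos and Junb, which had high signal and hold a TATA box. Zfp36 is given because it holds the CArG box that serum response factor binds. Fosb and Atf3 are given because their signal did not centre on the annotated 5′ end. Each run holds the 250 bases before the RefSeq start and the first 10 bases of the transcript, in build GRCm38.p6, and capitals mark the motifs found.
Fos (chr12:85473640-85473899, plus strand): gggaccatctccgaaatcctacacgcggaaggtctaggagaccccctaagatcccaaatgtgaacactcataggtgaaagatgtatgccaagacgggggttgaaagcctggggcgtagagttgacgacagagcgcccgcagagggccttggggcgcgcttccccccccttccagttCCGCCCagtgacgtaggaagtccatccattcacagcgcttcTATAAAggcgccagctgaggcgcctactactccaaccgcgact
Junb (chr8:84978739-84978998, minus strand): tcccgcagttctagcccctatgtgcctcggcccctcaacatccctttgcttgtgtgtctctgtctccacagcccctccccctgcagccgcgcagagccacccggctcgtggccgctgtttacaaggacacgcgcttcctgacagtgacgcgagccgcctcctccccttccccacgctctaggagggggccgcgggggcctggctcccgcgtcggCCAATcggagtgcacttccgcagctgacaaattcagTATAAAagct
Zfp36 (chr7:28379219-28379478, minus strand): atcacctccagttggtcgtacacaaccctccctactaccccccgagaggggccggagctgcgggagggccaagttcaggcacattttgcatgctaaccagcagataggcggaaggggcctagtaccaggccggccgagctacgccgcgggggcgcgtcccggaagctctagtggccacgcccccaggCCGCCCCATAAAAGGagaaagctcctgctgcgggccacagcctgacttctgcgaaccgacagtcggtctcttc
Fosb (chr7:19310036-19310295, minus strand): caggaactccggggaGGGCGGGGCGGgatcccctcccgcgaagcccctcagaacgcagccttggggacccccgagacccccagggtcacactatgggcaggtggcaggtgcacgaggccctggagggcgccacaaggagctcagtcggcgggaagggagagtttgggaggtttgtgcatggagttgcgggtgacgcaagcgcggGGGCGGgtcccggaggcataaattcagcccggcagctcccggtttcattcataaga
Atf3 (chr1:191183324-191183583, minus strand): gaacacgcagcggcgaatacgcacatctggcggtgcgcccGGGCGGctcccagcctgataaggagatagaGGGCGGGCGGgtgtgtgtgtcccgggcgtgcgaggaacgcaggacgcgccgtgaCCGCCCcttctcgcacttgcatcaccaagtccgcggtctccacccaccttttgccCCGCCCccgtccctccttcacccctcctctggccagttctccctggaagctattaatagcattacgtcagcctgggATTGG

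These motifs were searched on both strands in 300 bases, from 250 before to 50 after the RefSeq start, for 8 of the 10 genes. Egr1 and Ier2 had no sequence in the promoter set used and were not searched. Only exact matches inside the window were counted, so variant or more distant sites would be missed. A GC box (GGGCGG), the element bound by Sp1, was in 6 of the 8 (Fos, Fosb, Fosl2, Jun, Atf3 and Zfp36), compared with 35.7% of the 32851 promoters of the table. The Atf3 promoter held 5 matches, of which 2 overlap, and the Fosb promoter 3, of which 2 overlap. A TATA box (TATAAA) was in Fos, 33 bases before the start, in Junb, and in 13.6% of all promoters. In Junb it began at the RefSeq start, which lies 30 bp upstream of the GENCODE 5′ end used for the signal. A CCAAT box (CCAAT) was in Atf3, Jun and Junb and in 37.4% of all promoters. The CArG box was in Zfp36, 58 bases before the start and overlapping a GC box by 1 base, and in 1.63% of all promoters. The full cAMP response element (TGACGTCA) and the AP-1 site (TGANTCA) were in none of the 8, and in 1.79% and 7.81% of all promoters. The Jund window held none of the 6 motifs. A match describes the letters only and is no measure of binding.

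The levels show how strongly these promoters were marked in villus cells. Jun had the highest mean signal over the 4 libraries (15.0), followed by Fos (14.6), and 99.3% and 99.1% of all protein-coding promoters lay below them. Fosl2 (10.6), Junb (10.5), Ier2 (10.2) and Zfp36 (9.20) came next, with 94.3%, 94.0%, 93.3% and 90.2% of promoters below. Jund (6.64), Egr1 (4.35) and Fosb (3.13) had intermediate values, with 79.4%, 66.6% and 60.3% of promoters below, and Atf3 (0.881), with 43.4% below, was the only member under the filter of 2. The median of the tested promoters was 6.27, and 7 of the 10 genes lay above it. Against the median of each library by itself, 7 and 8 genes lay above in wild-type and 6 and 5 in ApcMin/+ libraries. The order was steady at its lower end, since Jund exceeded Egr1, Egr1 exceeded Fosb and Fosb exceeded Atf3 in 4 of 4 libraries. Among the upper genes it was not, since Jun exceeded Fos and Junb exceeded Ier2 in 2 of 4 libraries each, and the other neighbours kept their order in 3 of 4.

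**Figure D1:**
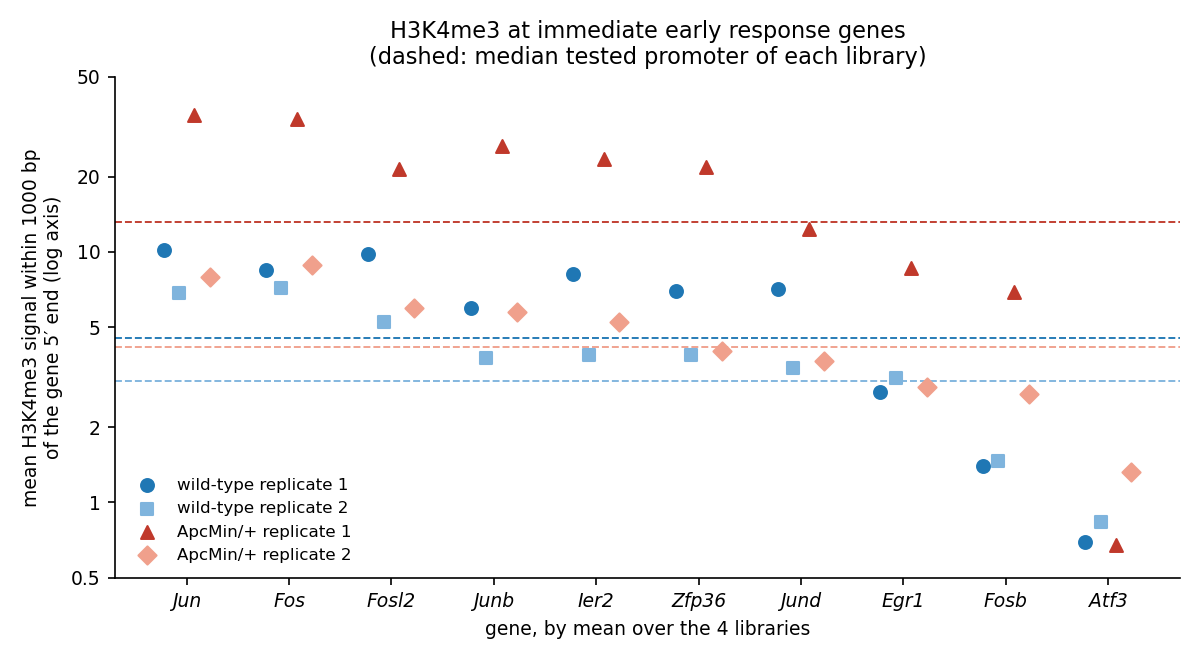
Mean H3K4me3 signal within 1000 bp of the 5′ end of each gene (log axis), with 1 point for each library and a dashed line at the median tested promoter of that library. ApcMin/+ replicate 1 is the highest library at 9 genes, and ApcMin/+ replicate 2 lies between the wild-type libraries at 7. The wild-type libraries also differ from each other, as at Ier2 (8.19 and 3.88), while Atf3 sits near 1 in all 4 libraries.

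Among the Fos genes, Fos (chr12:85473890-85477273, plus strand) had signals of 8.48 and 7.17 in wild-type libraries (replicate 1 first, here and in what follows) and 33.9 and 8.85 in ApcMin/+ libraries. Both ApcMin/+ values were above both wild-type values, although ApcMin/+ replicate 2 exceeded wild-type replicate 1 by little. Fosl2 (chr5:32135801-32157842, plus strand), the Fos relative also called Fra-2, had 9.85 and 5.25 in wild-type and 21.4 and 5.96 in ApcMin/+ libraries, and ApcMin/+ replicate 2 lay between the wild-type libraries. Fosb (chr7:19302696-19310051, minus strand) had 1.39 and 1.46 in wild-type and 6.95 and 2.71 in ApcMin/+ libraries. The groups did not overlap at Fosb, but these signals correspond to only about 4, 14, 51 and 30 fragments, so that the counting error is large in wild-type replicate 1. Both wild-type values were under 2, so Fosb passed the filter on mean signal only through the ApcMin/+ libraries and had to differ to be tested, and its difference supports nothing by itself.

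Among the Jun genes, Jun (chr4:95049034-95052222, minus strand) had signals of 10.2 and 6.82 in wild-type and 35.2 and 7.95 in ApcMin/+ libraries, from about 29, 65, 261 and 87 fragments. Junb (chr8:84974484-84978718, minus strand), which can restrain the activity of Jun, had 6.00 and 3.77 in wild-type and 26.5 and 5.75 in ApcMin/+ libraries. Jund (chr8:70698949-70700616, plus strand), the member known for steady expression in unstimulated cells, had 7.09 and 3.43 in wild-type and 12.4 and 3.68 in ApcMin/+ libraries. At each of these 3 genes ApcMin/+ replicate 1 was highest and ApcMin/+ replicate 2 fell between the wild-type libraries. Relative to the median tested promoter of the same library, Jun stood at 2.25, 2.23, 2.67 and 1.90 and Jund at 1.56, 1.12, 0.938 and 0.882 in the 4 libraries, wild-type first.

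Of the remaining genes, Ier2 (chr8:84661331-84662852, minus strand) had signals of 8.19 and 3.88 in wild-type and 23.5 and 5.23 in ApcMin/+ libraries. Zfp36 (chr7:28376784-28380253, minus strand) had 6.99 and 3.90 in wild-type and 21.9 and 4.01 in ApcMin/+ libraries. Egr1 (chr18:34859823-34864984, plus strand) had 2.77 and 3.13 in wild-type and 8.61 and 2.90 in ApcMin/+ libraries. At these 3 genes too ApcMin/+ replicate 2 lay between the wild-type libraries. Atf3 (chr1:191170296-191218039, minus strand) had 0.697 and 0.834 in wild-type and 0.675 and 1.32 in ApcMin/+ libraries, from about 2, 8, 5 and 14 fragments, and it was the only member at which ApcMin/+ replicate 1 was not the highest library.

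The signal did not always centre on the annotated 5′ end. The 5′ end of Atf3 is the start of a long transcript, whereas the start of a shorter coding transcript lies 34699 bp downstream, close to the RefSeq start whose sequence is printed above. Within 1000 bp of that inner start the signal was 7.32 and 4.38 in wild-type and 20.97 and 8.29 in ApcMin/+ libraries, and an enriched region of 1900 bp covered it. The annotated 5′ end lay in no enriched region, and a region of 400 bp lay within 1000 bp of it. In all 4 libraries the inner start of Atf3 carried more signal than the outer one.

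At Fosb the mark lay on both sides of the 5′ end. In the 300 bases of the promoter window the signal was 2.27 and 4.14 in wild-type and 24.7 and 5.77 in ApcMin/+ libraries, and in the next 300 bp downstream it was 0 and 0.038 in wild-type and 1.63 and 0.380 in ApcMin/+ libraries. A second maximum stood inside the gene, about 1700 bp downstream, outside the 1000 bp window. In wild-type replicate 1 the highest bin of 50 bp was there (43.5), as in ApcMin/+ replicate 1 (76.0), whereas wild-type replicate 2 (7.98) and ApcMin/+ replicate 2 (11.1) were highest upstream of the start.

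The highest bin of 50 bp at Zfp36 was inside the gene in every library, at 750 or 800 bp from the 5′ end in 3 of them and at 1850 bp in ApcMin/+ replicate 2. At Ier2 it was 1000 bp inside the gene in both ApcMin/+ libraries (102.9 and 22.5) and 1450 bp upstream in both wild-type libraries (38.8 and 18.4). Wild-type replicate 1 also had a signal of 32.33 at 1000 bp inside Ier2, so the mark was not absent there and a shift in position is not shown. At Egr1 the highest bin was 1150 bp inside in both ApcMin/+ libraries (83.6 and 18.5) and at 2000 and 250 bp in wild-type replicates 1 and 2 (13.4 and 14.1), and neither contrast was tested. The Egr1 maximum of wild-type replicate 1 was nearly tied, with 13.375 at 1200 bp beside 13.42 at 2000 bp, so its position there is not firm. At a second coding start of Egr1, 1384 bp downstream, the signal was 4.33 and 4.57 in wild-type and 17.3 and 3.69 in ApcMin/+ libraries. At the second coding start of Zfp36, 998 bp downstream and beside the RefSeq start printed above, it was 11.4 and 5.99 in wild-type and 35.4 and 7.11 in ApcMin/+ libraries. The promoter window of Zfp36 with the CArG box carried 27.5 and 8.96 in wild-type and 60.6 and 12.0 in ApcMin/+ libraries, the highest of the 8 windows in each library but ApcMin/+ replicate 2, where that of Atf3 reached 13.4. The RefSeq start of Jund lies 1210 bp from the GENCODE 5′ end, and its window carried 0 and 0.697 in wild-type and 1.49 and 0.968 in ApcMin/+ libraries, so the absence of motifs there concerns a window with little H3K4me3.

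**Figure D2:**
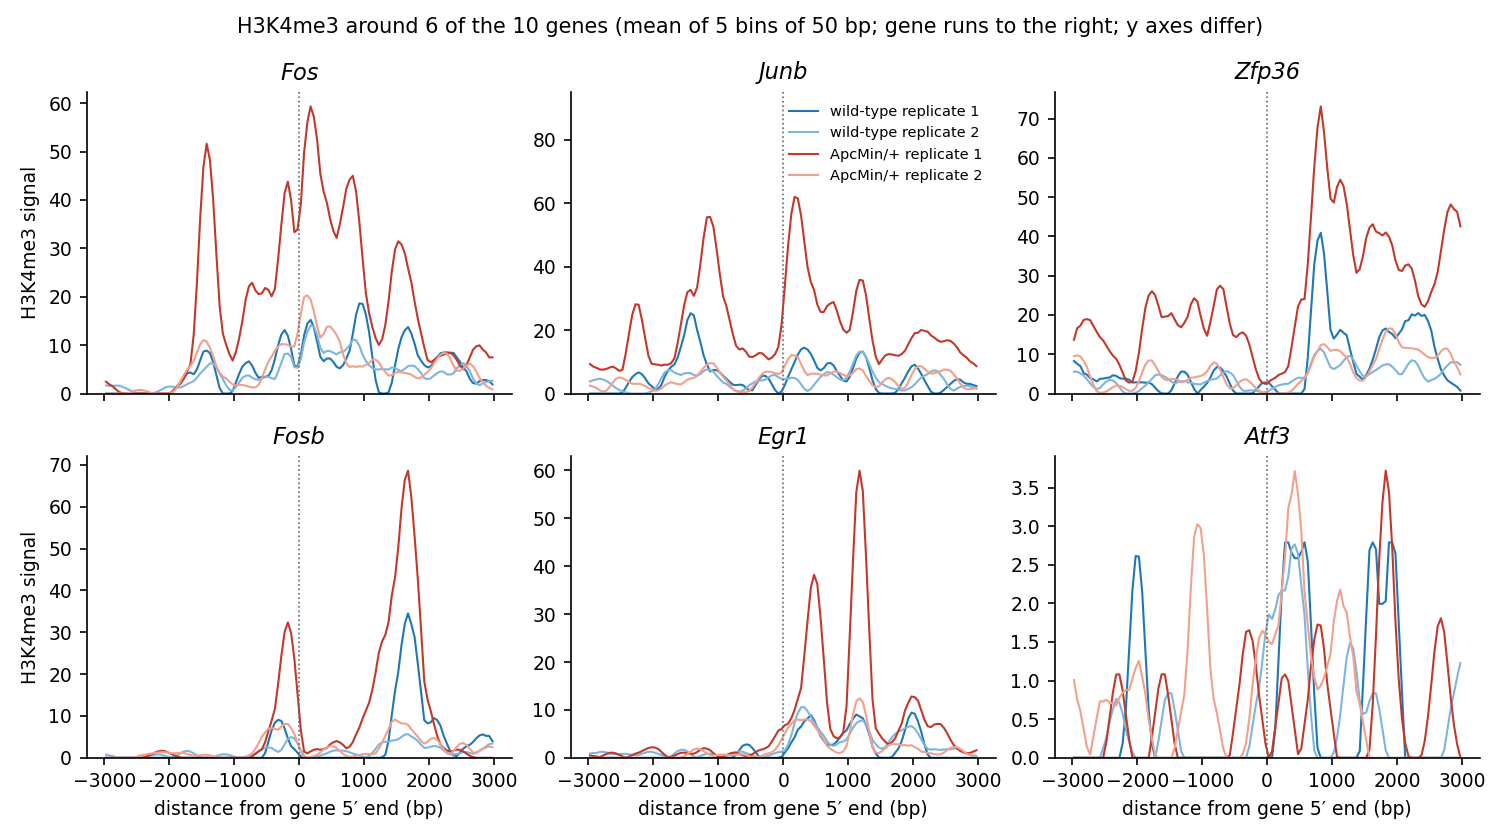
H3K4me3 signal (running mean of 5 bins of 50 bp) from 3000 bp upstream to 3000 bp downstream of the 5′ end of 6 genes, with 1 line for each library; the y axes differ. Fos and Junb are marked on both sides of the start, Zfp36 and Egr1 mainly downstream, and Fosb upstream and about 1700 bp inside the gene, and the Atf3 panel stays under 4.

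**Figure D3:**
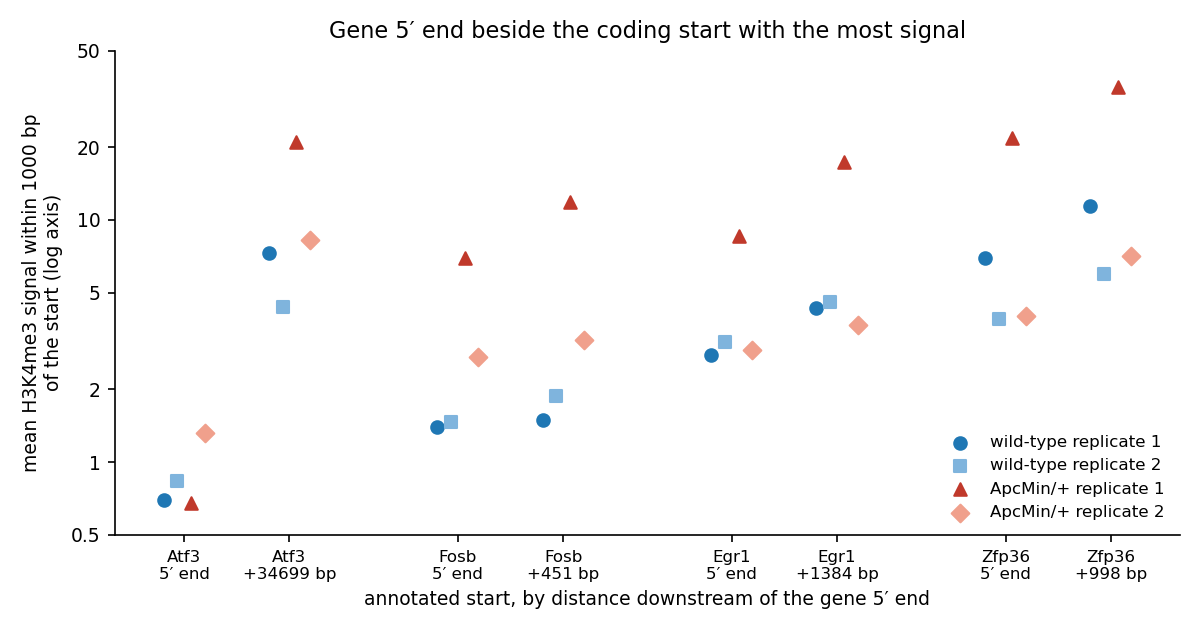
Mean H3K4me3 signal within 1000 bp of the 5′ end of Atf3, Fosb, Egr1 and Zfp36 and of the coding start of the same gene with the highest mean signal (log axis), with 1 point for each library. At Atf3 all 4 libraries rise from 0.675 to 1.32 at the 5′ end to 4.38 to 20.97 at the start 34699 bp downstream.

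The genes were taken by name and not by the length of the marked region, but with earlier results of these data known. Regions were called on the mean of the 4 tracks, to which ApcMin/+ replicate 1 contributed most. The threshold was fixed, so region length can rise with signal, and the members were not compared with promoters of like signal. The region was 9400 bp long at Zfp36, 7900 bp at Junb, 7800 bp at Fos, 6000 bp at Jun and Ier2, 5000 bp at Fosl2, 4200 bp at Fosb and 4000 bp at Jund, compared with a median of 2000 bp over the 9930 tested promoters. It reached 4000 bp or more at 8 of the 9 members that passed the filter and at 9.77% of the tested promoters. Egr1 (2800 bp) was the exception. Fosb is among the 8 but passed the filter only through the ApcMin/+ libraries, so its place in this count was favoured by the filter. Atf3, with a region of 400 bp within 1000 bp of its 5′ end, was left out by the same filter. No region held the start of another protein-coding gene. At Fos, Jun, Jund, Ier2 and Zfp36 the region contained the whole gene, and at Junb 92.5% of it. The genes are short, with a median length of 3852.5 bp compared with 17425 bp over all protein-coding genes, 7 of 10 are below the lower quartile, and at Jun, Junb, Jund and Ier2 the transcript from the 5′ end has a single exon. The median ratio of observed to expected CpG dinucleotides within 1000 bp was 0.695, against 0.640 at the tested promoters, and ranged from 0.232 at the 5′ end of Atf3 to 0.949 at Fosl2.

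**Figure D4:**
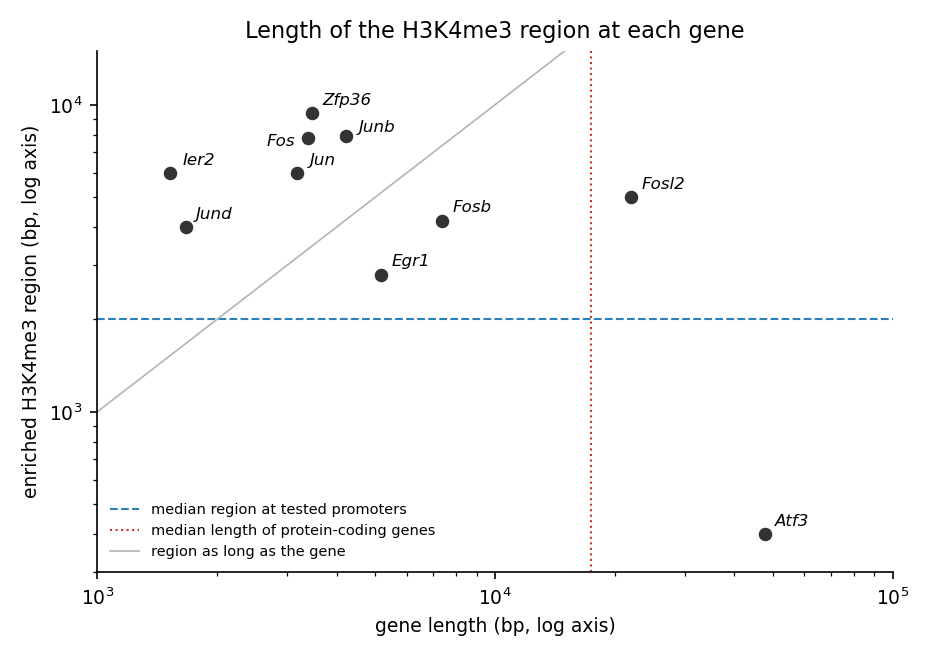
Length of the enriched H3K4me3 region within 1000 bp of each 5′ end against the length of the gene (log axes), with the median region at tested promoters (2000 bp, dashed) and the median protein-coding gene (dotted). In the panel, 6 genes lie above the diagonal, where the region is longer than the gene, and Atf3 lies far below it.

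The comparison of ApcMin/+ with wild-type mice asks whether promoter H3K4me3 differed at these genes in normal-appearing villus cells. In bulk chromatin, a change in every cell and a change in the number of cells that carry the mark cannot be told apart. As scaled by the authors, all 9 members tested had a higher ApcMin/+ mean, as had 99.2% of the 9930 tested promoters. The median member difference was 0.88 on the log2(signal + 1) scale, beside 0.85 over all tested promoters. Within 1000 bp the largest differences were at Junb (1.24 ± 1.20, SE), Fosb (1.16 ± 0.70), Fos (1.08 ± 1.26) and Jun (0.94 ± 1.26), and the smallest at Fosl2 (0.60 ± 1.24) and Jund (0.40 ± 1.07). The order depended on the setting, since with 2000 bp on each side Zfp36 had the largest (1.05) and Jun the smallest (0.74) and Jund reached 0.85, and with a pseudocount of 5 Fosb fell to 0.58 and Egr1 to 0.38. None of the 9 was called by limma (Benjamini-Hochberg adjusted p = 0.683 to 0.742, and 0.533 to 0.9998 over the alternatives that kept all 4 libraries), and 0% of the 9930 tested promoters were. At an unadjusted p under 0.05 there were 132 promoters in all and 0 members.

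The direction rested on ApcMin/+ replicate 1, in which the tested members had 2.56 (Fosb) to 5.45 (Zfp36) times the signal of ApcMin/+ replicate 2, compared with a median of 3.16 over the tested promoters. Both ApcMin/+ libraries lay above both wild-type libraries at 2 of the 9 members, Fos and Fosb, and at 38.5% of the tested promoters, and below them at 0 members and 0.161% of promoters. Without ApcMin/+ replicate 1, 3 of the 9 members were higher in the remaining ApcMin/+ library than in the wild-type mean, Fosb (0.61), Junb (0.23) and Fos (0.16), compared with 66.5% of the tested promoters, and Jund (-0.35), Zfp36 (-0.32) and Fosl2 (-0.24) were lowest. Fosb passed the filter only through the ApcMin/+ libraries, so its place in this and every other count of higher members was favoured by the filter. Without ApcMin/+ replicate 2, limma called 5 of the 9 members higher (Fosb, Junb, Egr1, Ier2 and Zfp36, adjusted p = 0.00196 to 0.0447), as it did 65.2% of the promoters, which compares a single ApcMin/+ library assumed to vary like the wild-type libraries.

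After centring on the median promoter of each library, which removes a shift of 0.85 shared by the promoters, the members fell on both sides of 0. The median member difference was then 0.03, and 5 of the 9 were higher in ApcMin/+ mice, beside 48.8% of the tested promoters. Junb had the highest centred difference (0.38 ± 0.28, SE), with both ApcMin/+ libraries above both wild-type libraries, which was so at 1 member and 13.1% of promoters. Jund had the lowest (-0.45 ± 0.29), with both ApcMin/+ libraries below, which was so at 1 member and 14.3% of promoters. Between these, Fosb stood at 0.31, Fos at 0.22, Jun at 0.09, Ier2 at 0.03, Zfp36 at -0.08, Egr1 at -0.22 and Fosl2 at -0.25. No member was called (limma, adjusted p = 0.9995 for each), and of all promoters 12 (0.121%) were. The order of the Jun genes, with Junb highest and Jund lowest, is a description of these 4 libraries and the difference between them was not tested.

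**Figure D5:**
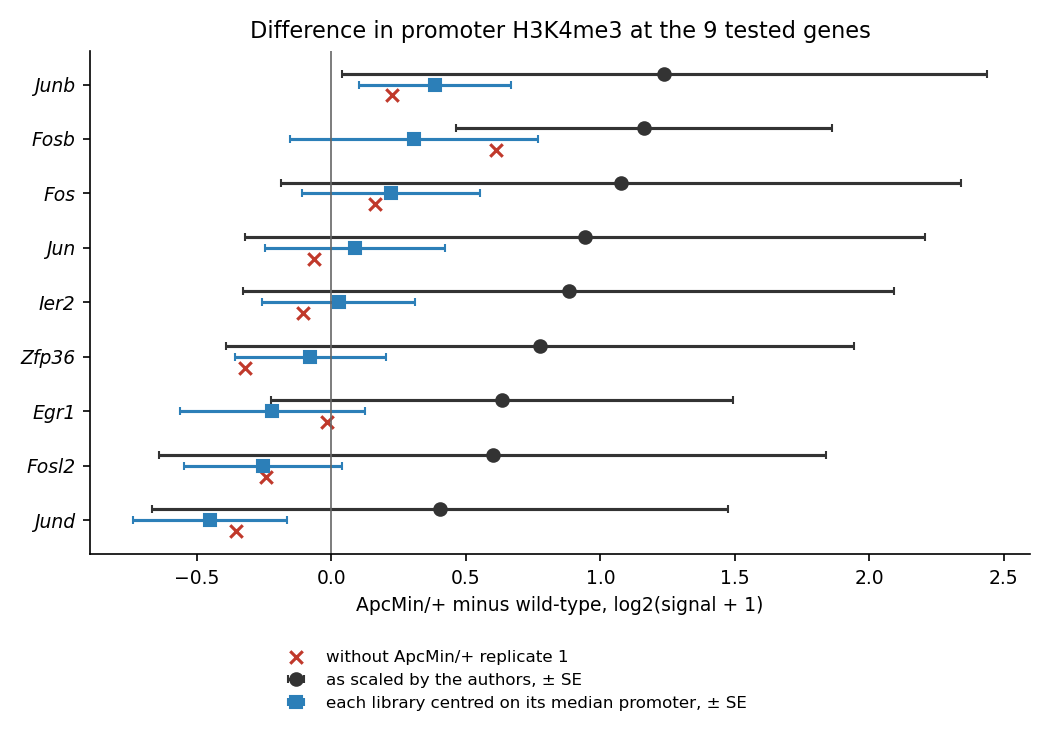
Difference between ApcMin/+ and wild-type means at the 9 tested genes on the log2(signal + 1) scale, as scaled by the authors (circles, ± SE), after centring on the median promoter (squares, ± SE) and without ApcMin/+ replicate 1 (crosses). All circles lie above 0, while squares and crosses fall on both sides of it.

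At the annotated start with the highest mean signal of each gene, all 10 members could be tested. The strongest start of Atf3, that of a transcript without coding sequence 34931 bp downstream and so near the inner coding start, differed by 1.06 ± 1.25 (SE) and by 0.17 when centred. That of Fosb, 451 bp downstream, differed by 1.46 ± 0.80 and by 0.57 when centred. Without ApcMin/+ replicate 1 the values were 0.44 and 0.65, with a median of 0.13 over the promoters. Atf3 and Fosb were the 2 members whose groups did not overlap, which held at 37.9% of the 10796 promoters tested in this way. At this start too, both wild-type values of Fosb were under the filter of 2, so Fosb was tested only through the ApcMin/+ libraries. The start was also chosen by a mean in which ApcMin/+ replicate 1 was the highest library at Fosb. The difference and the lack of overlap at Fosb therefore support nothing by themselves. No member was called there either (limma, adjusted p = 0.682 to 0.742), and none by centring (0.9998).

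Other genes of the response were read from lists chosen with earlier results of these data known. Of 36 other immediate early genes, 25 passed the filter and none was called by limma. Their median difference was 0.90, with 0.05 when centred and 0.20 without ApcMin/+ replicate 1, beside 0.13 over all tested promoters. The highest mean signals were close together, at Dusp6 (12.3), a phosphatase that inactivates ERK, Klf10 (12.2), a TGF-beta-induced zinc finger factor, and Rhob (12.1), a small GTPase. Dusp6 led this list only in ApcMin/+ replicate 1 (30.2). In the wild-type libraries Dusp6 had 8.06 and 4.70, Klf10 12.3 and 4.21, and Rhob 13.8 and 5.82. Egr4 (0.367), Npas4 (0.619) and Egr2 (0.735) had the lowest, the neuronal activity genes Npas4 and Egr4 and the Egr1 relative Egr2 all lying below the filter. The list thus ranged from promoters nearly as strongly marked as Fos to promoters at the level of the silent genes.

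Of 11 upstream transcription factors and coactivators, 9 passed the filter and none was called, with a median difference of 0.87, with 0.02 when centred and 0.10 without ApcMin/+ replicate 1. Mrtfb (10.9) and Mrtfa (9.05), the actin-regulated coactivators of serum response factor, and Crem (10.0), a cAMP-responsive factor, had the highest mean signals. Of the lowest, Crebbp (4.39), a histone acetyltransferase, passed the filter and the ternary complex factors Elk1 (1.37) and Elk3 (1.01) did not.

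Of 12 other basic leucine zipper genes whose products can pair with Fos or Jun proteins, 10 passed the filter and none was called, with a median difference of 0.86, with 0.0048 when centred and 0.10 without ApcMin/+ replicate 1. Nfe2l2 (13.2), the antioxidant response factor Nrf2, Atf7 (11.0) and Atf4 (10.6), the factor of the integrated stress response, had the highest mean signals. Batf3 (0.709) and Batf (1.66), known from lymphoid and dendritic cells, were below the filter and Jdp2 (3.69), a repressor of AP-1, was the lowest above it. Jdp2 had 1.05 and 1.77 in wild-type and 8.96 and 3.01 in ApcMin/+ libraries, with a difference of 1.41, a centred difference of 0.56 and 0.75 without ApcMin/+ replicate 1 (limma, adjusted p = 0.683 and 0.9995 with all 4 libraries). Its groups did not overlap, as at 3 of the 10 genes of this list and 38.5% of all tested promoters, and it passed the filter only through the ApcMin/+ libraries, both wild-type values being under 2.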

How the data were processed

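H3K4me3 CUT&RUN libraries of villus cells from 2 wild-type and 2 ApcMin/+ mice were compared, grouped by the genotype in the labels. According to the methods and labels, the authors trimmed the read pairs, aligned them to mm10 (Bowtie2), removed duplicates with Picard, selected fragments of nucleosome size and made the tracks with HOMER. The deposited values are signal, namely coverage scaled by the authors to 10000000 tags which is no count, so tests for counts were not applied and fragment numbers are estimates from the tags per library. No control was subtracted and replicates were not pooled.

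Signal was averaged within 1000 bp of the 5′ end of protein-coding genes on 21 chromosomes. Enriched regions are runs of 100 bp bins in which the 4 tracks average 5 times the genome-wide mean or more, merged where 500 bp or less lay between them and kept from 300 bp upwards. The test was limma 3.58.1 (R 4.3.3), with its trend option, on log2(signal + 1) of promoters whose mean signal reached 2, a scale that understates the change of low promoters, with Benjamini-Hochberg adjustment over 9930 promoters and calls at 0.05. Python 3.11.15 with numpy 2.4.6, pandas 2.3.3 and matplotlib 3.10.9 served for the rest. Tests were run on simulated data at these depths, with an assumed spread between mice and the same promoter shares in every library. Of the 9930 promoters 200 were changed 4-fold, and 94.5% of these were recovered with 3 false calls. When 1 ApcMin/+ library was raised 3-fold, 0% were recovered uncentred and 94.5% centred, the latter with 6 false calls. The spread between the real mice was not used, so these shares need not hold for the real libraries. Depth limits precision, since the median member held about 20.2 fragments in wild-type replicate 1, 36.6 in wild-type replicate 2, 160.2 in ApcMin/+ replicate 1 and 50.6 in ApcMin/+ replicate 2.

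The 10 genes, the 3 gene lists, the marker lists and the motifs were chosen with earlier results of these data known. The genes named are all 10, and of each list the 3 with the highest and the 3 with the lowest mean signal and any past the threshold. Older symbols were matched through RefSeq synonyms, and promoter sequences are from RefSeq (GRCm38.p6). Other marks, other ages and RNA were not analysed here.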

Additional observations from a re-analysis of the deposited data

How the results depend on the processing

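No member was called under any alternative that kept all 4 libraries (window, filter, pseudocount, scaling, start and block). With 1 library left out at a time there were 0 to 6479 promoters called, 0 to 5 members called and 3 to 9 members higher in ApcMin/+ mice, with the upper counts of calls without ApcMin/+ replicate 2 and the lowest count of higher members without ApcMin/+ replicate 1. Over these fits the log2 difference ranged from -0.24 to 1.44 at Fosl2, -0.066 to 1.95 at Jun, -0.35 to 1.16 at Jund, -0.016 to 1.29 at Egr1, -0.11 to 1.87 at Ier2 and -0.32 to 1.87 at Zfp36. Jund also turned without wild-type replicate 2 (-0.03). With 2000 bp on each side Jund moved to 0.85, and with a pseudocount of 5 Fosb moved to 0.58 and Egr1 to 0.38, all with the same direction.

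Centring on the median promoter called 12 promoters and left 5 members higher, with Fosl2 at -0.25, Jund at -0.45, Egr1 at -0.22 and Zfp36 at -0.078. Quantile normalization called 2 promoters and left 5 members higher, with Fosl2 at -0.28, Jund at -0.45, Egr1 at -0.24 and Zfp36 at -0.15. Scaling to the background instead kept all 9 members higher, with a median of 1.16.

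The following were added after seeing the data. Centring at the strongest start called 13 promoters and left 5 of 10 members higher, with Fosl2 at -0.29, Jund at -0.49, Egr1 at -0.12, Ier2 at -0.0062 and Zfp36 at -0.0035. Centring with no wild-type replicate 1 called 2 promoters, with Fosl2 at -0.079, Jund at -0.24 and Egr1 at -0.51. Centring with no wild-type replicate 2 called 18 promoters and left 5 members higher, with Fosl2 at -0.43, Jund at -0.66, Ier2 at -0.21 and Zfp36 at -0.21. Centring with no ApcMin/+ replicate 1 left 3 members higher, with Fosl2 at -0.37, Jun at -0.19, Jund at -0.48, Egr1 at -0.14, Ier2 at -0.23 and Zfp36 at -0.45. Centring with no ApcMin/+ replicate 2 called 30 promoters, with Fosl2 at -0.14, Jund at -0.42 and Egr1 at -0.30. Why the values turn was not tested beyond these fits.

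Same-numbered libraries share only a number, as the labels name no litter or day, and their deviations correlated at 0.196 over 9930 promoters with only 2 pairs. A replicate block raised the promoters called from 0 to 1 and the members called stayed at 0. The 2 mice per genotype limit every comparison.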
